A study of Rattus norvegicus with 13 samples.

Results

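The type I interferon-stimulated genes are the genes that cells switch on when type I interferon reaches them, and 48 of them were followed in the hearts of rats. They were taken by gene name from a list of known members, with no threshold on their values. The list was chosen with earlier results of these data known, so the shares below are descriptions. All 48 were among the 38600 names in the tables of 6 and 8 months, and 47 were among the 25600 names in the 2-month table, in which Oas1b was not listed. The RNA sensor Rigi stands in these tables under the name Rig1. RNA of heart tissue was sequenced in bulk from 13 rat samples, labelled as biological replicates. WT hearts were untreated controls (genotype WT, treatment none), with 2 hearts at 2 months and 3 hearts at 6 months. ST hearts, the sonogenetic group, received the adeno-associated virus AAV2/9-cTnT-MscL-G22S-mCherry, with 2 hearts at 2 months, 3 at 6 months and 3 at 8 months, where there was no WT group. MscL-G22S is a mechanosensitive channel of bacterial origin with a changed residue, and mCherry is a red fluorescent protein. The cTnT promoter drives the transgene in heart muscle cells. No samples with a virus that lacks the channel were analysed here. Whether the months count from birth or from the injection, and whether ultrasound was applied, is not stated in the labels, nor are strain and sex. The comparisons asked whether the interferon-stimulated genes differed between ST and WT hearts at 2 and at 6 months, and how ST hearts of 8 months stood to the ST and to the WT hearts of 6 months.

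Type I interferons (interferon alpha and beta) bind the receptor IFNAR1 and IFNAR2, whose kinases JAK1 and TYK2 phosphorylate transcription factors. The complex ISGF3, which holds STAT2 and IRF9, then binds the interferon-stimulated response element in the promoters of its target genes. The products bind or destroy viral RNA (IFIT and OAS proteins, PKR), hold virus back (BST2, IFITM3, MX proteins), sense nucleic acids (RIG-I, MDA5) or carry the response forward and limit it (IRF7, ISG15, USP18). Several of them, among them the guanylate-binding proteins and the immunity-related GTPases, respond strongly to interferon gamma too. In the heart this programme is best known from viral myocarditis, and many of its genes are expressed at a low level without infection.

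The element that ISGF3 and related factors bind is visible in the promoters of the genes themselves. Promoters of 38 of the 48 genes, from 250 bases before to 50 bases after the start of transcription, were found by symbol in the RefSeq promoter table of the rat assembly GRCr8, whereas Ifit1, Ifit2, Oas2, Rigi, Dhx58, Zbp1, Mx2, Isg15, Usp18 and Rtp4 had no entry. The core GAAANNGAAA, searched on both strands, was held by 25 of these 38 promoters (65.8%), against 1131 of 27457 genes (4.12%) with a promoter in the table. The gamma-activated site TTCNNNGAA, also searched on both strands, was held by 12 of the 38 (31.6%), against 9.39% of the 27457; a base can be shared by both motifs. A match describes the letters and does not show that a factor was bound. The 8 promoters below are shown because their genes behaved differently from each other in what follows; they were picked, after the values were seen, from 13 that hold the core within 170 bases of the start and belong to genes with values given in each library. Each line gives the 170 bases before the start, 5′ to 3′ along the strand of the gene, with coordinates in GRCr8 and the core, or its reverse complement, in capitals.

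Ifit3, chr1:241527156-241527325, plus strand: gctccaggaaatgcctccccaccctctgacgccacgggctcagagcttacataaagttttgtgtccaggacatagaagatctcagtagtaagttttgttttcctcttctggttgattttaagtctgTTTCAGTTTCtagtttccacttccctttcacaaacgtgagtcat

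Bst2, chr16:18254968-18255137, minus strand: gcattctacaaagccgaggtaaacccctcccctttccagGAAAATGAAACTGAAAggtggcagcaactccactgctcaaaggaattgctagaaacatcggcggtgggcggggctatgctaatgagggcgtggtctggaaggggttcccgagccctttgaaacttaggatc

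Irf7, chr1:205800024-205800193, minus strand: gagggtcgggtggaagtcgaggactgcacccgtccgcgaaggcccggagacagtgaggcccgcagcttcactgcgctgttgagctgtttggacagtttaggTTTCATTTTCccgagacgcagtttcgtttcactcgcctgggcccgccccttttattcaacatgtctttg

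Oasl2, chr12:47383186-47383355, minus strand: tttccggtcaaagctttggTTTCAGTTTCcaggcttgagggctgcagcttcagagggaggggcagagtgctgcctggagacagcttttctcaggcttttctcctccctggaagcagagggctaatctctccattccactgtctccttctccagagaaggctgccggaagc

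Ifi27, chr6:128355142-128355311, plus strand: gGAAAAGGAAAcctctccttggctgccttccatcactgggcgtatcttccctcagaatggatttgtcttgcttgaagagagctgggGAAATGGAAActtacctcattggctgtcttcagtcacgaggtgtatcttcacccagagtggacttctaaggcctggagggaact

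Ifitm3, chr1:205541759-205541928, minus strand: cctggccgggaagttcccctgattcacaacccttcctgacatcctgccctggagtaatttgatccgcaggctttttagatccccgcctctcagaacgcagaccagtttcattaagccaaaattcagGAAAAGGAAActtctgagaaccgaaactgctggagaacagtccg

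Gbp5, chr2:233910829-233910998, plus strand: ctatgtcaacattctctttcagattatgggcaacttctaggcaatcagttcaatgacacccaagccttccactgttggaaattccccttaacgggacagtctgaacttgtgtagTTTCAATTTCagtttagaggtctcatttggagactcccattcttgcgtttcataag

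Eif2ak2, chr6:21940984-21941153, plus strand: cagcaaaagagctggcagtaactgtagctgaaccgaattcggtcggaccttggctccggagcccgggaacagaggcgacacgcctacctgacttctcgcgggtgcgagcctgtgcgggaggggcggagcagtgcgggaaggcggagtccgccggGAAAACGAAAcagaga

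The core of Ifit3 lies 44 bases before the start of transcription, as does that of Ifitm3, and that of Eif2ak2 lies 16 bases before it. Bst2 and Ifi27 hold the core at a pair of places each: in Bst2 the copies overlap, 131 and 125 bases before the start, and in Ifi27 they lie 169 and 84 bases before it. The cores of Irf7, Gbp5 and Oasl2 lie 69, 56 and 151 bases before the start. As the values below show, promoters with the core belonged both to genes that were lower in ST hearts at 2 and at 6 months (Gbp5) and to genes that were lower at 2 months and higher at 6 months (Bst2, Irf7, Ifit3).

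Library totals were, at 2 months, 6.54 to 11.3 M counts, at 6 months 6.72 to 8.49 M and at 8 months 4.70 to 5.57 M. Levels are counts per M counts (CPM), and 3 counts, the most that a count of 0 allows at 95% confidence, correspond to 0.267 to 0.634 CPM, depending on the library, for counting error only. The transgene had 0 counts in every WT library and was present in every ST library, with 11.3 and 11.1 CPM at 2 months, 204, 94.2 and 218 CPM at 6 months and 159, 115 and 182 CPM at 8 months. Markers of heart muscle cells were abundant in all 13 libraries, matching the labelled tissue. No pair of replicates agreed within counting noise (chi-square per degree of freedom from 1.93 to 12.1), so none was counted as a repeat of another. At 6 months WT replicate 1 and ST replicate 2 lay farther from the other replicates of their groups (6.89 to 8.67) than these lay from each other (1.93 and 2.13), and where leaving out either of them ended a call given below for one of the 48 genes, this is said beside it. The 2-month table lists other names than the later tables, so levels are compared only within it or across the tables of 6 and 8 months. Levels of different genes are not compared, because no gene lengths were used.

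At 2 months many interferon-stimulated genes, among them all 7 MX genes and other GTPases, were lower in ST than in WT hearts, and 1 gene, Ifit1, was far higher. Of 45 genes with enough counts for the test, 18 were lower (40% of them, where 2.1% of all 12121 genes tested were lower) and 1 was higher (2.22%, where 2.7% of all genes were higher), at an adjusted p under 0.05. Here and below, a value with a standard error (SE) is a log2 fold change, and a gene is called higher or lower where it passed that threshold. The median log2 fold change over the 45 genes was -0.71, where that of all genes was near 0 (-0.000438). Taken library by library over the 47 listed genes, the median relative to the WT mean was alike in the 2 ST hearts. It stood at -0.70 in ST replicate 1 and at -0.71 in ST replicate 2, with 42 of 47 genes below the WT mean in each. The share of all genes below the WT mean was not computed, so the 42 of 47 is a description only. Without WT replicate 1 the lower genes numbered 9 in place of 18, and the median over the genes tested lay between -0.76 and -0.74 when each library was left out in turn. Fewer cells of a type and less RNA per cell cannot be told apart in bulk tissue.

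**Figure D1:**
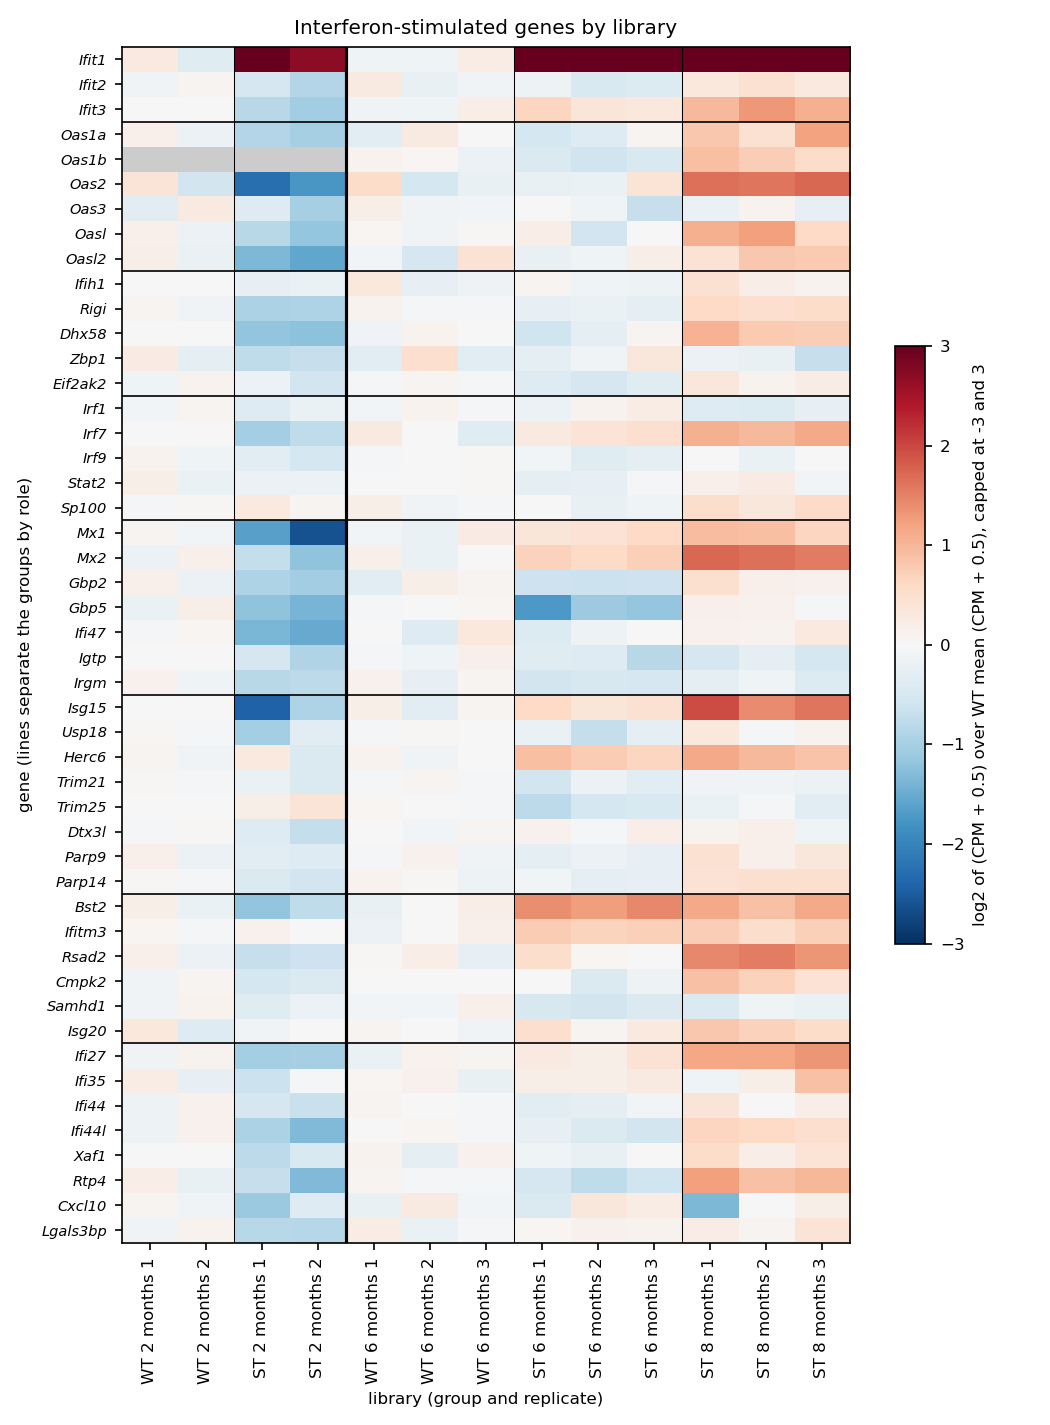
Heat map of the 48 genes (rows, grouped by role) in the 13 libraries (columns), coloured by the log2 ratio of CPM + 0.5 to the WT mean of the same table (the WT mean of 6 months for the hearts of 6 and 8 months), with colours capped at -3 and 3 and grey for a gene not listed. Most rows are blue in both ST hearts of 2 months, mixed at 6 months and red at 8 months, while Ifit1 is dark red in all 8 ST libraries.

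At 6 months members of the list differed in both directions, with MX genes, Bst2, Herc6 and Ifitm3 higher and Gbp2, Gbp5, Igtp and Irgm, 4 of the guanylate-binding and immunity-related GTPases, lower in ST hearts. Of 44 genes tested, 8 were higher in ST hearts (18.2%, where 19.9% of all 13253 genes were higher) and 10 were lower (22.7%, where 20.1% were lower), with a median log2 fold change of -0.18 and an all-gene median of -0.0016. Both shares were close to those of all genes. The median relative to the WT mean stood at -0.16, -0.19 and -0.0029 in the 3 ST libraries. Scaling by library total alone moved the median of all genes by -0.11 and gave 5 higher and 19 lower members in place of 8 and 10, with Ifit3, Irf7 and Mx1 no longer past the threshold, so the balance at 6 months depends on the scaling. DESeq2 gave 5 higher and 4 lower. Higher members numbered 5 without WT replicate 2 or without ST replicate 1, lower members numbered 6 without WT replicate 3, and the median was -0.08 without ST replicate 2.

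At 8 months the ST hearts had more of most of these transcripts than the hearts of 6 months. Against ST hearts of 6 months, 30 of 46 genes tested were higher (65.2%, where 19.1% of all 12931 genes were higher) and 2 were lower (4.35%, where 20.5% were lower), with a median of 0.58 and an all-gene median of 0.02. Against WT hearts of 6 months, 27 of 46 were higher (58.7%, where 17.8% of all 13095 genes were higher) and 2 were lower (4.35%, where 16.1% were lower), with a median of 0.50 and an all-gene median of -0.0081. Over the 48 listed genes, the median relative to the WT mean of 6 months was 0.47, 0.39 and 0.46 in the 3 ST libraries of 8 months. The comparisons of ST with WT hearts of 6 months and of ST hearts of 8 months with each of them share libraries, so they are not independent of each other. With no WT hearts at 8 months, the transgene and the later time cannot be told apart in the comparison with WT hearts. Between ST hearts of 8 and 6 months, a changed ST effect, the later time in any heart and a difference between the tables cannot be told apart either. The ST libraries of 8 months were also the shallowest.

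The IFIT proteins, which bind viral RNA, include the one gene that ran against the rest at 2 months, Ifit1, and 2 that did not. Ifit1, whose product binds the cap of foreign RNA, had 0.780 and 0.313 CPM in the 2 WT hearts of 2 months and 8.26 and 6.24 CPM in the 2 ST hearts, that is 9 counts in all against 146. The ratio of summed counts per library size was 12.6, with a 95% exact counting interval from 6.46 to 28.1, and the log2 fold change was 3.62 (SE 0.42, adjusted p = 6.41e-05). At 6 months Ifit1 had 0, 0 and 0.138 CPM in WT hearts, 1 count in all, and 5.01, 5.28 and 4.97 CPM in ST hearts, 113 counts in all, which is 115 times as much (counting interval 20.2 to 4565). Every ST heart lay above every WT heart at both times, and the fitted log2 fold change at 6 months (6.38, SE 0.51, adjusted p = 2.05e-06) depends on how the near-empty WT group is handled.

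In ST hearts of 8 months Ifit1 had 13.5, 8.96 and 10.7 CPM, above all ST hearts of 6 months, with a log2 fold change of 1.12 (SE 0.19, adjusted p = 0.000481). Against WT hearts of 6 months the 171 counts were 248 times as many per library size (counting interval 43.9 to 9858). Ifit1 is thus the only one of the 48 genes that was higher in ST hearts in each of the 4 comparisons at an adjusted p under 0.05, since at 2 months no other member passed in that direction. The ST effect on Ifit1 at 6 months exceeded that at 2 months by 2.74 (SE 0.99, adjusted p = 0.0577), which did not pass the threshold.

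Reads of Ifit1 are not fully separable from those of a near copy. In RefSeq GRCr8 the gene Ifit1 lies inside the span of Ifit1bl (Ifit1b-like), and in the 3 libraries where the count of Ifit1 has a fraction the sum of both genes is whole, to within 0.005. Ifit1bl itself had 5.24 and 5.48 CPM in WT and 4.35 and 4.71 CPM in ST hearts of 2 months, 5.60, 5.41 and 5.87 CPM in WT and 7.17, 5.53 and 5.75 CPM in ST hearts of 6 months, and 7.19, 9.84 and 7.80 CPM at 8 months. WT and ST hearts of 6 months overlapped in Ifit1bl, and at 2 months ST hearts lay slightly below WT hearts. With the counts of both genes summed, the log2 fold change of ST over WT was 1.00 (SE 0.22, adjusted p = 0.0136) at 2 months and 0.98 (SE 0.15, adjusted p = 0.000264) at 6 months, and their difference was -0.02 (SE 0.24, adjusted p = 0.963). The direction of the ST effect at each time was the same with the sum, while its growth from 2 to 6 months was not seen. The sum cannot decide on that growth. In WT hearts Ifit1 had a mean of 0.547 CPM at 2 months and 0.0459 CPM at 6 months. Ifit1bl, at 5.24 CPM or more in WT hearts, outweighs both.

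Ifit2 and Ifit3, which lie near Ifit1 in the genome and act with it, did not share its pattern. Ifit2 had 27.0 and 30.7 CPM in WT and 20.2 and 15.5 CPM in ST hearts of 2 months, where the groups did not overlap and the log2 fold change was -0.68 (SE 0.17, adjusted p = 0.0283). At 6 months Ifit2 had 44.2, 31.5 and 34.3 CPM in WT and 33.0, 26.8 and 27.6 CPM in ST hearts, with overlapping groups and -0.33 (SE 0.13, adjusted p = 0.0576). Ifit2 had 46.1, 50.4 and 45.2 CPM at 8 months, above every heart of 6 months, with 0.70 (SE 0.10, adjusted p = 0.00011) against ST and 0.38 (SE 0.11, adjusted p = 0.0146) against WT. The call against WT was lost without WT replicate 2 or without ST replicate 2 of 8 months (adjusted p = 0.081 and 0.075). Ifit3, which stabilises IFIT1 on RNA, was 2.02-fold lower in ST hearts of 2 months, with 6.91 and 6.74 CPM in WT and 3.64 and 3.06 CPM in ST hearts and -1.01 (SE 0.28, adjusted p = 0.0437).

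At 6 months the order of the groups was the other way round for Ifit3. WT hearts had 8.19, 7.98 and 10.3 CPM, ST hearts had 14.0, 11.5 and 11.1 CPM, and all ST hearts lay above all WT hearts. For Ifit3 the log2 fold change was 0.47 (SE 0.15, adjusted p = 0.0299). The change between the times, a difference of ST effects of 1.47 (SE 0.28, adjusted p = 0.00153), passed the test. ST hearts of 8 months had 17.8, 22.6 and 19.0 CPM, higher again than ST hearts of 6 months (0.70, SE 0.14, adjusted p = 0.00158) and than WT hearts (1.18, SE 0.15, adjusted p = 1.31e-05). The call of Ifit3 at 2 months was lost when any 1 of the 4 libraries was left out (adjusted p from 0.051 to 0.26) and with DESeq2 (adjusted p = 0.33), and that at 6 months without WT replicate 1 or 2 or ST replicate 1 and with DESeq2. The call of Ifit2 at 2 months was lost without either WT library (adjusted p = 0.056 and 0.18) and with DESeq2 (0.12).

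**Figure D2:**
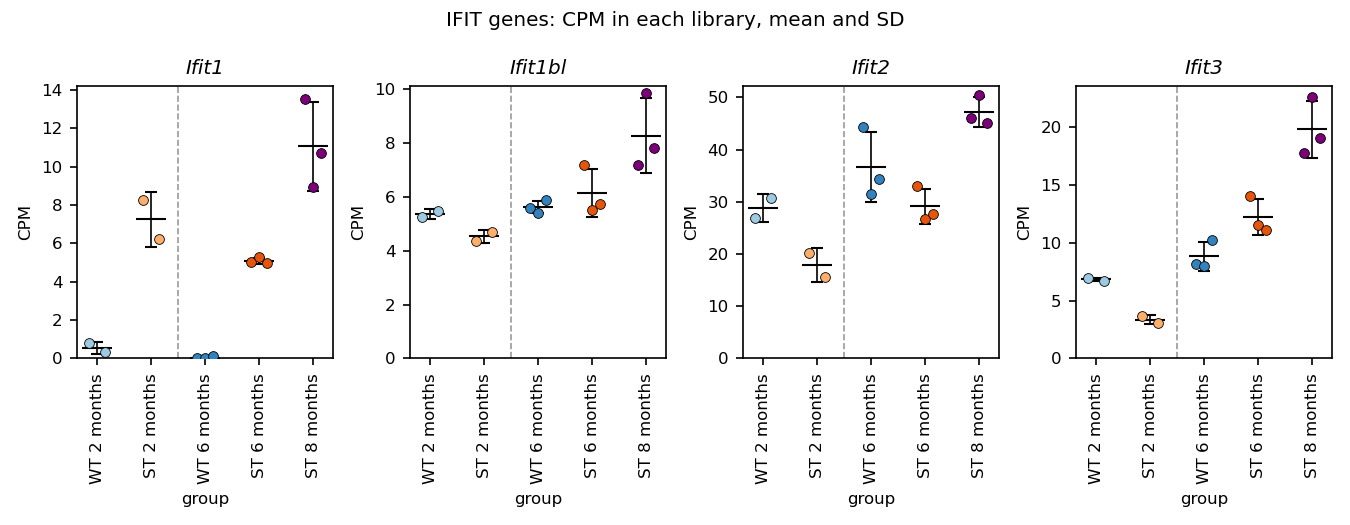
CPM of Ifit1, its near copy Ifit1bl, Ifit2 and Ifit3 in each library (points), with the mean and SD of each group (bars), 2 to 3 libraries a group; the dashed line separates the 2-month table from the later ones, whose levels are not comparable with it. Ifit1 is near 0 in all WT libraries and at 4.97 CPM or more in all ST libraries, while Ifit2 and Ifit3 are lower in ST than in WT at 2 months and highest of the later hearts at 8 months.

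The OAS enzymes make the messenger that activates RNase L, which degrades RNA, and the OAS-like proteins are their relatives. At 2 months 4 of the 6 family members were tested and 2 were lower in ST hearts, with a median of -1.56 over the 4. Oas2 had 3.79 and 1.72 CPM in WT and 0.178 and 0.471 CPM in ST hearts, 8.98-fold lower, with a log2 fold change of -3.17 (SE 0.60, adjusted p = 0.00466), and Oasl2 had 7.02 and 5.33 against 2.13 and 1.76 CPM. For Oasl2 the log2 fold change was -1.66 (SE 0.32, adjusted p = 0.00542). Neither gene's groups overlapped, but the WT hearts were far apart in Oas2, and without WT replicate 1 neither passed (adjusted p = 0.19 and 0.095). Oas1a and Oasl had negative values that did not pass, -1.14 (SE 0.37) and -1.45 (SE 0.52).

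At 6 months none of the 3 OAS genes tested differed between ST and WT hearts at the threshold, with -0.57 (SE 0.22) for Oas1b, -0.29 (SE 0.28) for Oas1a and -0.04 (SE 0.25) for Oasl2. At 8 months 5 of 5 tested were higher than in ST and than in WT hearts of 6 months. Oas2 had 2.18, 0.773 and 1.07 CPM in WT and 1.08, 1.11 and 1.96 CPM in ST hearts of 6 months and 5.29, 5.08 and 5.62 CPM in ST hearts of 8 months, with 1.92 (SE 0.29, adjusted p = 0.000187) against ST and 2.00 (SE 0.32, adjusted p = 0.000149) against WT. Hearts of 8 months lay above all hearts of 6 months. Oas1b had 4.51, 4.38 and 3.60 CPM in WT and 2.93, 2.58 and 2.88 CPM in ST hearts of 6 months and 8.25, 7.33 and 6.35 CPM at 8 months, with 1.38 (SE 0.21) against ST and 0.81 (SE 0.20) against WT.

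Oasl had 1.39, 0.614 and 1.18 CPM in ST hearts of 6 months and 2.96, 3.39 and 1.99 CPM at 8 months, with 1.40 (SE 0.38, adjusted p = 0.0102) against ST and 1.26 (SE 0.34, adjusted p = 0.00911) against WT, where it had 1.23, 1.03 and 1.20 CPM. Both calls of Oasl, a gene of few counts, were lost without ST replicate 2 of 8 months (adjusted p = 0.063 and 0.06) and with DESeq2 (0.078 and 0.09). Oas1a was higher at 8 months by 1.22 (SE 0.27) against ST and 0.94 (SE 0.25) against WT, and Oasl2 by 0.79 (SE 0.19) and 0.76 (SE 0.23). Against WT, the call of Oasl2 was lost without WT replicate 2, without ST replicate 2 or 3 of 8 months and with DESeq2, and that of Oas1a without ST replicate 3 of 8 months. The call of Oas1b against WT was lost with DESeq2. Oas1b, not listed at 2 months, was not part of the 1 fit over all groups. Oas3 had at most 8 counts in any library and entered no test, and Oasl had at most 9 counts at 6 months and was not tested there.

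Among the sensors of foreign nucleic acid, Rigi (RIG-I, which recognises RNA with a free 5′ triphosphate) and its relative Dhx58 (LGP2) were lower in ST hearts of 2 months. Rigi had 34.1 and 29.8 CPM in WT and 16.3 and 16.7 CPM in ST hearts, with a log2 fold change of -0.96 (SE 0.16, adjusted p = 0.00151). Dhx58 had 4.24 and 4.23 against 1.60 and 1.53 CPM, with -1.42 (SE 0.35, adjusted p = 0.0269), a call lost without any 1 of 3 of the 4 libraries (adjusted p from 0.088 to 0.18) and with DESeq2 (0.26). Ifih1 (MDA5, a sensor of long double-stranded RNA) showed -0.22 (SE 0.17) and Eif2ak2 (PKR, the kinase that halts translation on such RNA) showed -0.34 (SE 0.16), neither past the threshold. At 6 months Eif2ak2 alone of the 4 tested was lower in ST hearts, with 38.9, 42.1 and 38.2 CPM in WT and 30.4, 27.6 and 30.9 CPM in ST hearts and -0.42 (SE 0.09, adjusted p = 0.00286).

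At 8 months Rigi, Dhx58 and Eif2ak2 were higher than in either group of 6 months. Dhx58 had 2.59, 3.09 and 2.80 CPM in WT and 1.70, 2.21 and 3.01 CPM in ST hearts of 6 months and 6.34, 5.26 and 5.08 CPM at 8 months, with 1.24 (SE 0.26, adjusted p = 0.00232) against ST. Hearts of 8 months did not overlap with those of 6 months in any of these genes; Rigi rose by 0.79 (SE 0.09) and Eif2ak2 by 0.65 (SE 0.09) against ST, and Eif2ak2 by 0.24 (SE 0.09, adjusted p = 0.0466) against WT. This last call was lost without WT replicate 1 or 3, without ST replicate 1 or 3 of 8 months, with scaling by library total, with no filter, with DESeq2 and in 1 fit over all groups. Zbp1, which senses Z-form nucleic acid, had at most 6 counts in any library and entered no test.

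The transcription factors of the response moved unevenly. Irf7, the factor that amplifies type I interferon production, had 19.1 and 19.1 CPM in WT and 9.24 and 11.1 CPM in ST hearts of 2 months. For Irf7 the log2 fold change was -0.92 (SE 0.18, adjusted p = 0.00629). At 6 months Irf7 had 18.2, 14.9 and 11.5 CPM in WT and 17.9, 19.8 and 21.3 CPM in ST hearts. For Irf7 the log2 fold change was 0.41 (SE 0.15, adjusted p = 0.0455); WT replicate 1 lay within the range of the ST hearts, and the call was lost with DESeq2 and when any library but WT replicate 1 was left out (log2 fold change from 0.25 to 0.57). At 8 months Irf7 had 31.5, 29.5 and 33.2 CPM, with 0.67 (SE 0.10, adjusted p = 0.000256) against ST and 1.09 (SE 0.14, adjusted p = 1.46e-05) against WT hearts of 6 months.

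Irf1, which responds strongly to interferon gamma, ran the other way at 8 months. It had 23.8, 26.9 and 24.7 CPM in WT hearts, 22.2, 27.1 and 29.2 CPM in ST hearts of 6 months and 19.0, 18.8 and 21.2 CPM at 8 months, below every heart of 6 months, with -0.42 (SE 0.12, adjusted p = 0.0165) against ST and -0.34 (SE 0.11, adjusted p = 0.0254) against WT. These calls were lost in 3 of the fits that left out 1 library each (adjusted p from 0.053 to 0.066 and from 0.077 to 0.093) and with DESeq2 (0.063 and 0.16). Stat2 and Irf9, subunits of ISGF3, did not pass the test between ST and WT hearts at either time: at 2 months they showed -0.19 (SE 0.16) and -0.45 (SE 0.21) and at 6 months -0.19 (SE 0.09) and -0.24 (SE 0.11). Stat2 was higher at 8 months against ST, with overlap and 0.31 (SE 0.10, adjusted p = 0.0333), and did not pass against WT (0.13, SE 0.10). Its call was lost with DESeq2 and without ST replicate 1 or 2 of 6 months or of 8 months. Irf9 passed in neither comparison of 8 months. Sp100, a nuclear body protein that restricts viral genomes, was higher at 8 months by 0.61 (SE 0.09) against ST and 0.51 (SE 0.09) against WT.

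All 7 dynamin-like and immunity-related GTPases were lower in ST hearts of 2 months, with a median of -1.03, the one family in which every member tested was lower. Mx1, a GTPase that blocks influenza and related viruses, had 7.27 and 6.42 CPM in WT and 1.87 and 0.706 CPM in ST hearts, 5.06-fold lower. For Mx1 the log2 fold change was -2.34 (SE 0.37, adjusted p = 0.00123). Mx2 had 17.8 and 22.7 against 12.1 and 8.47 CPM. For Mx2 the log2 fold change was -0.95 (SE 0.20, adjusted p = 0.0113). Gbp5, a guanylate-binding protein of host defence, had 7.91 and 10.3 against 3.64 and 3.18 CPM, with -1.39 (SE 0.27, adjusted p = 0.00494), and Gbp2 had 19.3 and 15.4 against 8.88 and 8.12 CPM. For Gbp2 the log2 fold change was -1.03 (SE 0.19, adjusted p = 0.00449). The call of Gbp2 was lost without WT replicate 1 (adjusted p = 0.099). Ifi47, an immunity-related GTPase, had 13.4 and 14.4 against 5.06 and 4.59 CPM. For Ifi47 the log2 fold change was -1.51 (SE 0.22, adjusted p = 0.000438), and its relatives Igtp and Irgm showed -0.70 (SE 0.17) and -0.88 (SE 0.23). The calls of Igtp and Irgm were lost without WT replicate 1 and with DESeq2, that of Igtp also without WT replicate 2 and that of Irgm without ST replicate 1, and the call of Mx2 was lost without WT replicate 2. No WT heart overlapped with an ST heart in any of the 7. With 2 hearts a group this adds little to the calls: 40 of the 45 listed genes tested, called or not, had no overlap. The share over all genes was not computed.

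At 6 months both MX genes were higher, 4 members of the family were lower, and Ifi47 was not called. Mx2 had 18.7, 14.6 and 17.0 CPM in WT and 27.4, 25.7 and 27.6 CPM in ST hearts, with 0.69 (SE 0.11, adjusted p = 0.000421) and no overlap. Mx1 had 6.06, 5.50 and 7.68 against 8.39, 8.81 and 9.93 CPM. For Mx1 the log2 fold change was 0.50 (SE 0.17, adjusted p = 0.0366); this call was lost without WT replicate 1 or 2 or ST replicate 1 or 3 and with DESeq2 (adjusted p = 0.16). Gbp5 had 10.4, 10.7 and 11.2 against 2.93, 4.79 and 4.58 CPM, 2.58-fold lower, with -1.36 (SE 0.18, adjusted p = 0.00013), close to its fold change at 2 months; the difference of the ST effects was 0.01 (SE 0.32). Gbp2 was lower with -0.65 (SE 0.13), Igtp with -0.55 (SE 0.15) and Irgm with -0.52 (SE 0.15), with no overlap between ST and WT hearts. The groups overlapped in Ifi47, with -0.17 (SE 0.18, adjusted p = 0.49). Igtp lost its call without WT replicate 3 or ST replicate 3, Irgm without WT replicate 1 or 3, and both with DESeq2.

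At 8 months Mx2 stood at 56.5, 53.3 and 49.9 CPM, above every heart of 6 months, with 0.98 (SE 0.09, adjusted p = 1.94e-06) against ST and 1.68 (SE 0.10, adjusted p = 6.77e-09) against WT. Mx1 had 12.6, 12.5 and 10.3 CPM, with 0.88 (SE 0.17, adjusted p = 0.000979) against WT and 0.38 (SE 0.15, adjusted p = 0.0656) against ST. Gbp5 had 12.1, 11.8 and 10.5 CPM, which was higher than in ST hearts of 6 months (1.46, SE 0.20, adjusted p = 9.06e-05) and did not pass the test against WT hearts (0.10, SE 0.14, adjusted p = 0.617), with replicates 1 and 2 above every WT heart. Gbp2 gave the same order, with 0.91 (SE 0.12) against ST and 0.27 (SE 0.14) against WT, the latter not past the threshold. Igtp had 13.1, 12.5 and 15.3 CPM in WT hearts of 6 months and 9.51, 11.1 and 9.36 CPM at 8 months, with -0.43 (SE 0.15, adjusted p = 0.0298), one of the 2 genes that were lower than in WT hearts, the other being Irf1. That call of Igtp was lost without WT replicate 3 or without ST replicate 1 or 3 (adjusted p from 0.09 to 0.12) and with DESeq2 (0.19).

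Mx1 and Mx2 are close copies whose counts have fractions in 10 libraries and sum to whole numbers in each of them, so reads were shared between them and the split is uncertain. With both summed, the log2 fold change was -1.20 (SE 0.20) at 2 months, 0.64 (SE 0.10) at 6 months, 0.85 (SE 0.08) for 8 months against ST and 1.50 (SE 0.10) against WT. Each of these passed the test, and the directions were those of Mx1 and of Mx2 alone. In all, 16 of the 48 genes had a fractional count in at least 1 library.

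ISG15, a ubiquitin-like protein coupled to newly made proteins, and the enzymes of ubiquitin and ADP-ribose transfer formed a group of 8. At 2 months 1 of them was lower, Parp14, an ADP-ribosyltransferase, with -0.51 (SE 0.13), a call lost without WT replicate 1 or 2 and with DESeq2. Isg15 itself had 2.15 and 2.21 CPM in WT and 0 and 0.917 CPM in ST hearts, with -2.34 (SE 0.71, adjusted p = 0.0754), a large difference on few counts. In 3 of the 4 libraries of 2 months the count of Isg15 has a fraction that its neighbour Agrn completes to a whole number, so reads were shared there too. At 6 months Isg15 had 2.73, 1.80 and 2.54 CPM in WT and 3.85, 3.19 and 3.40 CPM in ST hearts. For Isg15 the log2 fold change was 0.56 (SE 0.25, adjusted p = 0.0927). At 8 months it had 10.6, 7.15 and 8.16 CPM, above every heart of 6 months, with 1.30 (SE 0.21, adjusted p = 0.000393) against ST and 1.87 (SE 0.24, adjusted p = 2.00e-05) against WT.

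Herc6, the main ligase that attaches ISG15 in mice, had 14.3, 12.4 and 13.1 CPM in WT and 25.3, 23.0 and 21.1 CPM in ST hearts of 6 months, with 0.80 (SE 0.11, adjusted p = 0.000186) and no overlap. At 2 months its groups overlapped (-0.02, SE 0.22), and the ST effects at the 2 times differed by 0.80 (SE 0.26, adjusted p = 0.0348). The call of this difference was lost with scaling by library total, with DESeq2 and in 6 of the 10 fits that left out 1 library. Trim25, a ubiquitin ligase known for its action on RIG-I, moved against that pattern: it had 40.0 and 39.3 CPM in WT and 45.0 and 52.0 CPM in ST hearts of 2 months (0.29, SE 0.14, adjusted p = 0.284) and 55.4, 52.3 and 51.5 CPM in WT and 30.4, 36.5 and 38.8 CPM in ST hearts of 6 months (-0.58, SE 0.10, adjusted p = 0.000577). ST hearts thus lay above WT hearts at 2 months, without passing the test, and below them at 6 months. Usp18, the protease that removes ISG15 and dampens IFNAR, and Trim21, an antibody receptor with ligase activity, were lower at 6 months, with -0.41 (SE 0.15) and -0.34 (SE 0.12); each call was lost in 5 of the 6 fits that left out 1 library and with DESeq2. At 8 months 5 of the 8 genes were higher than in ST hearts of 6 months, among them Parp14 (0.69, SE 0.09), Parp9 (0.55, SE 0.10) and Usp18 (0.54, SE 0.17). The call of Usp18 was lost without ST replicate 2 of 6 months, without ST replicate 1 or 3 of 8 months and with DESeq2.

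Of the effectors at membranes and on nucleotides, Bst2 was lower in ST hearts at 2 months and higher at 6 months. Bst2 (tetherin, which holds budding virus at the cell surface) had 58.5 and 45.3 CPM in WT and 22.7 and 30.4 CPM in ST hearts of 2 months. For Bst2 the log2 fold change was -0.98 (SE 0.17, adjusted p = 0.0021). At 6 months it had 38.8, 45.3 and 52.2 CPM in WT and 119.9, 109 and 125 CPM in ST hearts, 2.60-fold higher. For Bst2 the log2 fold change was 1.38 (SE 0.10, adjusted p = 1.21e-06). The groups did not overlap at either time, and the order of WT and ST was opposite. At 8 months Bst2 had 99.8, 83.5 and 100.5 CPM, which was below ST hearts of 6 months (-0.32, SE 0.08, adjusted p = 0.00819) and above WT hearts (1.07, SE 0.10, adjusted p = 1.04e-06). Ifitm3, which blocks the fusion of virus with endosomes, had 31.0 and 28.5 CPM in WT and 32.8 and 29.9 CPM in ST hearts of 2 months, with overlap and 0.07 (SE 0.15), and 35.1, 39.7 and 43.9 against 66.9, 63.5 and 65.3 CPM at 6 months. For Ifitm3 the log2 fold change was 0.72 (SE 0.09, adjusted p = 8.10e-05). At 8 months it had 66.6, 56.8 and 65.1 CPM, with replicate 2 below every ST heart of 6 months and -0.06 (SE 0.08) against ST, not past the threshold. Ifitm3 shares reads with Ifitm2, and with both summed the value at 6 months was 0.59 (SE 0.09, adjusted p = 0.000318).

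Rsad2 (viperin, which makes a chain-terminating nucleotide) had 11.2, 12.6 and 9.21 CPM in WT and 16.2, 11.4 and 10.9 CPM in ST hearts of 6 months, with overlap and 0.21 (SE 0.18), and 30.7, 32.9 and 28.1 CPM at 8 months. All hearts of 8 months lay above all of 6 months, with 1.26 (SE 0.14, adjusted p = 2.03e-05) against ST and 1.48 (SE 0.13, adjusted p = 2.76e-07) against WT. Cmpk2, its neighbour in the genome and a nucleotide kinase, rose likewise, by 0.92 (SE 0.18) and 0.72 (SE 0.16). Samhd1, which depletes the nucleotides that viruses need, was lower in ST hearts of 6 months, with 13.9, 13.8 and 16.4 CPM in WT and 10.5, 9.95 and 10.7 CPM in ST hearts and -0.50 (SE 0.13, adjusted p = 0.00828), a call that DESeq2 did not make (adjusted p = 0.069). Isg20, an RNA exonuclease, was higher at 8 months by 0.73 (SE 0.14) against WT.

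**Figure D3:**
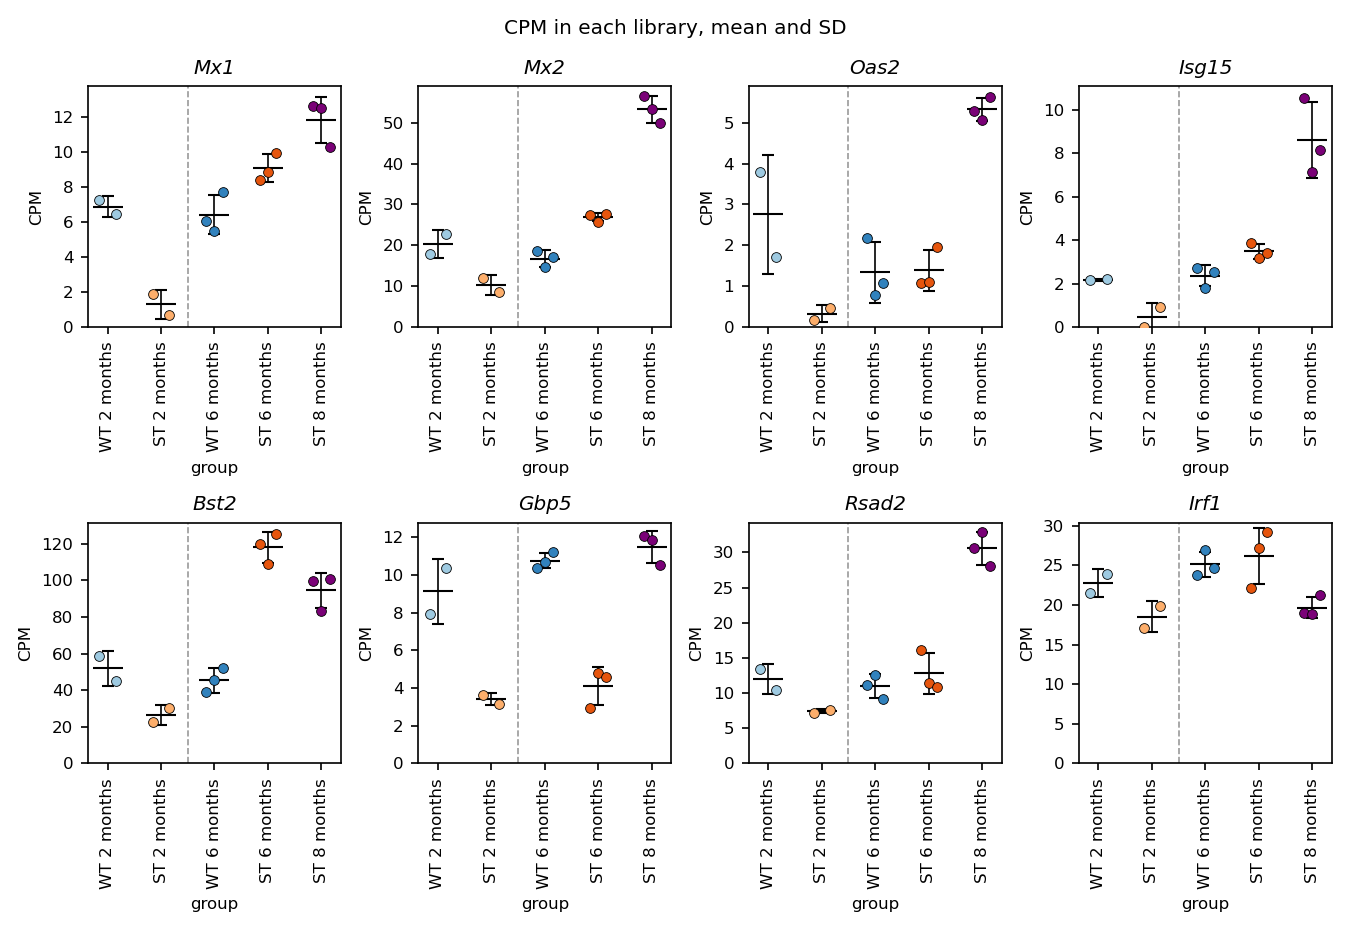
CPM of 8 genes in each library (points), with the mean and SD of each group (bars), 2 to 3 libraries a group; each panel has its own axis from 0, and the dashed line separates the 2-month table, whose levels are not comparable with the later ones. Mx1, Mx2, Oas2, Isg15, Bst2 and Gbp5 are lower in ST than in WT at 2 months, Bst2 is highest in ST at 6 months, Rsad2 and Oas2 are highest at 8 months, and Irf1 is lowest of the later hearts at 8 months.

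Of the other 8 interferon-induced genes, Ifi27 and Lgals3bp were lower in ST hearts of 2 months. Ifi27, widely used as a marker of interferon exposure, had 24.0 and 27.7 CPM in WT and 12.4 and 12.7 CPM in ST hearts. For Ifi27 the log2 fold change was -1.03 (SE 0.17, adjusted p = 0.00138). At 6 months it had 17.2, 21.4 and 20.8 against 24.1, 22.6 and 26.9 CPM, with no overlap and 0.31 (SE 0.12, adjusted p = 0.0535), and at 8 months 45.0, 44.8 and 50.6 CPM, with 0.93 (SE 0.10, adjusted p = 8.70e-06) against ST and 1.25 (SE 0.11, adjusted p = 2.10e-07) against WT. Rtp4, an interferon-induced chaperone of receptors, had 6.55, 5.91 and 6.00 CPM in WT and 4.16, 3.44 and 3.92 CPM in ST hearts of 6 months, with -0.68 (SE 0.18, adjusted p = 0.0117), and 15.1, 11.8 and 12.9 CPM at 8 months. It was thus lowest in ST hearts of 6 months and highest in ST hearts of 8 months, with 1.78 (SE 0.18, adjusted p = 6.31e-06) between them; DESeq2 did not call it at 6 months (adjusted p = 0.11). Lgals3bp, a secreted binding partner of galectin, had 30.4 and 35.1 against 18.1 and 17.9 CPM at 2 months. For Lgals3bp the log2 fold change was -0.86 (SE 0.16, adjusted p = 0.0034). At 8 months Ifi44, Ifi44l and Xaf1 were higher than in ST hearts of 6 months, by 0.44 (SE 0.13), 1.10 (SE 0.21) and 0.54 (SE 0.18), while Ifi35 passed in no comparison. The calls of Ifi44 and Xaf1 were lost without ST replicate 1 of 6 months, without ST replicate 1 or 3 of 8 months and with DESeq2, and that of Xaf1 also without ST replicate 2 of 6 months. Cxcl10, a chemokine for T cells, was not called in any comparison and had at most 2.46 CPM in any library.

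Whether the ST effect itself differed between 6 and 2 months was tested as an interaction over the names in both tables. Of 45 genes tested, 16 had a higher ST effect at 6 than at 2 months (35.6%, where 10.2% of all 12658 genes did) and 1 a lower one (2.22%, where 12% did), with a median difference of 0.62 and an all-gene median of -0.02. With a filter of 5 CPM the median difference was 0.36. Among the 17 genes that passed, the largest differences were those of Oas2 (3.23, SE 0.83, adjusted p = 0.011), Isg15 (2.90, SE 0.76, adjusted p = 0.0128), Mx1 (2.82, SE 0.38, adjusted p = 9.73e-05) and Bst2 (2.36, SE 0.20, adjusted p = 9.61e-07). The difference of Isg15 ran from 1.73 without ST replicate 1 of 2 months, which had 0 counts of it, to 7.88 without ST replicate 2, a fitted value that depends on how a group at 0 is handled. Mx2 (1.62, SE 0.23), Oasl2 (1.61, SE 0.41), Ifit3 (1.47), Ifi27 (1.33, SE 0.19), Ifi47 (1.33, SE 0.29) and Irf7 (1.32, SE 0.24) followed. Trim25 was the gene with a lower effect at 6 months (-0.88, SE 0.16, adjusted p = 0.000933). For Bst2, Mx1, Mx2, Ifit3 and Irf7 the effect passed the test at both times with opposite signs. With DESeq2 the call of Ifit3 at 2 months and those of Ifit3, Mx1 and Irf7 at 6 months were lost. Scaling by library total also lost the calls of Ifit3, Mx1 and Irf7 at 6 months, while Bst2 and Mx2 kept theirs with both alternatives. Without WT replicate 1 of 2 months the genes with a higher effect numbered 8 in place of 16, and Oas2, Isg15 and Oasl2 were among those lost; Oas2 was lost also without ST replicate 1 of 2 months. The tables of 2 and 6 months list different names, and the part of that difference in these values was not tested.

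**Figure D4:**
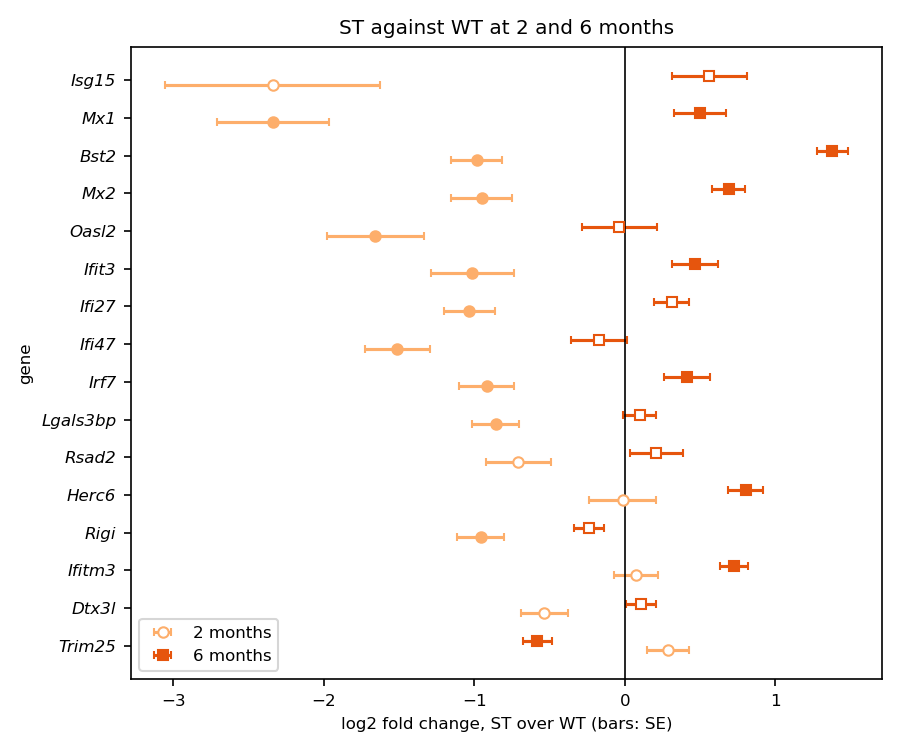
Log2 fold change of ST over WT at 2 months (circles) and 6 months (squares), with bars of 1 SE, for the 16 of the 17 genes whose ST effect differed between the times and which were tested at both; filled symbols passed the test at that time and open ones did not. Bst2, Mx1, Mx2, Ifit3 and Irf7 have filled symbols on both sides of 0, and Trim25 runs from above 0 to below it.

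**Figure D5:**
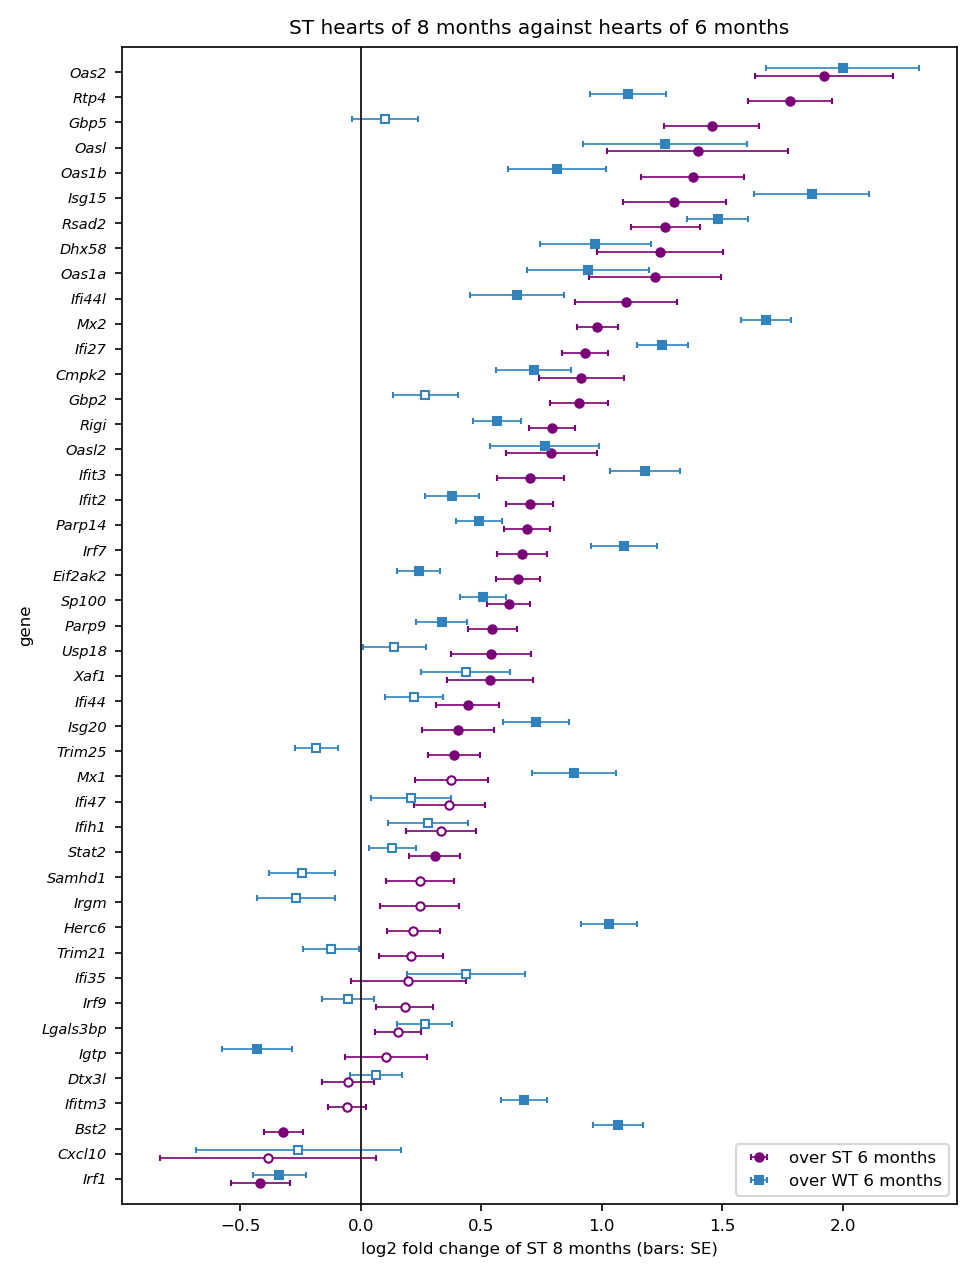
Log2 fold change of ST hearts of 8 months over ST hearts (circles) and over WT hearts (squares) of 6 months, with bars of 1 SE, for the 45 genes tested other than Ifit1, whose WT level is near 0; filled symbols passed the test. Oas2, Rtp4, Oasl and Isg15 lie far to the right in both, Bst2 lies left of 0 against ST and right of it against WT, and Irf1 lies left of 0 in both.

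The ligands of the pathway were hardly detected. Of 11 type I, II and III interferon genes looked for, 8 were listed at 2 months and 10 later; their summed level was 0 CPM in all libraries but 1 WT library of 2 months, where it was 0.111 CPM, and none could be tested. Among 10 receptor chains and kinases, Ifnar1, the signalling chain of the type I receptor, had 48.1 and 54.4 CPM in WT and 114 and 104 CPM in ST hearts of 2 months. For Ifnar1 the log2 fold change was 1.09 (SE 0.13, adjusted p = 9.41e-05). At 6 months Ifnar1 ran the other way, with 113, 103 and 114 CPM in WT and 54.9, 54.3 and 52.8 CPM in ST hearts and -1.02 (SE 0.07, adjusted p = 6.35e-07), and at 8 months it had 145, 127 and 133 CPM, with 1.32 (SE 0.07, adjusted p = 2.29e-08) against ST. Its direction was thus opposite to that of the 18 lower members at 2 months. In the receptor list as a whole, 2 of 9 genes tested were higher and 1 lower at 2 months (2.7% and 2.1% of all genes). At 6 months 4 of 10 were higher and 2 lower (19.9% and 20.1%), and at 8 months 2 and 4 of 10 against ST (19.1% and 20.5%).

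A list of 63 other interferon-induced genes, which are not among the 48, gave counts on genes the first list did not hold. It too was chosen with earlier results of these data known. At 2 months 14 of 45 tested were lower in ST hearts (2.1% of all genes) and 0 higher (2.7%), with a median of -0.50; led by smallest p, they included Gbp1 (-1.31, SE 0.15), the peptide transporter Tap1 (-1.62, SE 0.19) and Uba7, the enzyme that activates ISG15 (-1.99, SE 0.24). At 6 months 10 of 50 were higher and 12 lower, shares near those of all genes (19.9% and 20.1%). At 8 months 22 of 51 were higher and 6 lower than in ST hearts of 6 months (19.1% and 20.5% of all genes), and 14 of 51 higher and 4 lower than in WT hearts (17.8% and 16.1%). The ST effect was higher at 6 than at 2 months for 16 of 49 (10.2% of all genes) and lower for 1 (12%), Tlr3 (-1.55, SE 0.24). Uba7 was -1.05 (SE 0.18) at 6 months and 1.58 (SE 0.19) for 8 months against ST. Of 18 genes of nucleic acid sensing upstream of interferon, 0 of 15 tested changed at 2 months, 2 were higher and 2 lower of 17 at 6 months, and 1 was higher and 4 lower of 16 at 8 months against ST. Of 15 genes that restrain the response, 1 of 13 was higher at 2 months, and 4 were higher and 2 lower of 14 at 6 months. Adar, which edits double-stranded RNA so that MDA5 does not sense it, was -1.13 (SE 0.07) at 6 months and 0.82 (SE 0.07) for 8 months against ST, and Socs3, an inhibitor of cytokine signalling, was 2.96 (SE 0.34) and -3.69 (SE 0.39).

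Interferon-stimulated genes are expressed in many cell types, and lists of marker genes were counted beside them. Marker RNA in bulk tissue does not separate cell number from RNA per cell. Of all genes tested, 2.7% were higher and 2.1% lower in ST hearts of 2 months. At 2 months 0 of 4 T, B and NK cell markers tested passed, with a median of -1.12 and a summed level over 19 listed markers of 23.0 to 25.2 CPM in WT and 17.8 to 19.9 CPM in ST hearts; Cd5 and Cd79a were at 0 in both groups. Macrophage and monocyte markers summed to 146 to 197 CPM in WT and 176 to 221 CPM in ST hearts, with 2 of 14 higher, 0 lower and a median of 0.04. Mesothelial markers (2 of 3 higher, median 4.11) summed to 10.5 to 10.7 against 17.4 to 20.3 CPM. Erythroid markers (1 of 3 higher) summed to 145 to 179 against 301 to 394 CPM. Of endothelial markers 1 of 10 was lower, and of 8 heart muscle, 7 fibroblast, 7 smooth muscle and 2 dendritic cell markers tested 0 changed. Neutrophil markers summed to at most 4.90 CPM in any library, and at 2 months none was tested. The part of these cell types in the lower interferon-stimulated genes was not tested.

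At 6 months 5 of 5 erythroid markers were higher in ST hearts (sum 372 to 495 CPM in WT and 670.4 to 745 CPM in ST), 2 of 7 fibroblast markers were higher and 4 lower, 4 of 8 smooth muscle markers were higher and 1 lower, and 4 of 10 endothelial markers were higher and 2 lower. Of all genes tested at 6 months, 19.9% were higher and 20.1% lower. Dendritic cell markers were higher for 2 of 3 tested, with a median of 0.70, and summed to 31.8 to 37.7 CPM in WT and 42.1 to 55.1 CPM in ST hearts, without overlap; Ccr9 was at 0 in both groups and Siglech in ST hearts. Mesothelial markers (1 of 3 higher, 2 lower) had a median of -2.78, although their sums overlapped, with 22.9 to 35.0 against 29.4 to 32.5 CPM. Their ST effect was lower at 6 than at 2 months for 3 of 4 tested and higher for 0, with a median difference of -5.16. The part of these cells in the interferon-stimulated genes of 6 months was not tested. T, B and NK cell markers (0 of 4 called) and macrophage markers (2 of 16 higher, 2 lower) overlapped between the groups in their sums, with 26.9 to 33.8 against 29.9 to 38.8 CPM and 191 to 238 against 175 to 244 CPM. At 8 months macrophage markers summed to 145 to 162 CPM, below every WT heart of 6 months. Of 15 tested, 6 were lower and 0 higher than in WT hearts (16.1% and 17.8% of all genes). T, B and NK cell markers at 8 months summed to 26.2 to 30.5 CPM, with 0 of 4 called against WT, and Ms4a1 and Klrb1 were at 0 in ST hearts of 6 and 8 months. Endothelial markers were higher than in WT hearts for 6 of 10 and lower for 0, with a sum of 1532 to 1639.7 CPM against 1131 to 1406 CPM. Of 3 mesothelial markers tested against WT hearts, 1 was higher and 2 were lower at 8 months, with a median of -3.66. The part of macrophages, endothelial and other cells in the higher interferon-stimulated genes of 8 months was not tested.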

How the data were processed

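Bulk RNA of rat heart was measured in 13 samples, described by 3 tables, 1 for each time point; all of their sample columns were used. The values are expected counts as deposited, mostly whole numbers and not scaled between libraries; for the quantification tool the sources used here name none. The submitters' processing notes name the mouse builds GRCm38 and mm10, while the gene names are those of rat, so no gene positions were taken from the files; promoters are from RefSeq GRCr8. Groups, replicates and times follow the sample titles, which call the samples biological replicates.

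Expected counts were rounded. Each comparison was fitted on its own libraries over all genes kept by filterByExpr (minimum count 10), with TMM scaling, and tested two-sided with the quasi-likelihood test in edgeR 4.0.16 (R 4.3.3); p-values were adjusted by the Benjamini-Hochberg method over all genes tested, with a threshold of 0.05. The SE is the absolute log2 fold change over the square root of F. For levels in CPM, TMM factors were computed for the 2-month table alone and for the other 2 tables jointly. The change of the ST effect between 2 and 6 months was an interaction over 23018 names in both tables. The procedure was tested on simulated data.

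The members and the 15 accompanying gene lists (213 entries) were chosen with earlier results of these data known. By the rule for named genes, values in each library were due for Ifit1, Ifit2 and Ifit3, for up to 8 members in each direction with the largest change among those past the threshold, and for members called against the majority; other named members were added after their values were seen. Accompanying lists were named by their smallest p-values, and genes under 10 counts in every library are given as low. Some results the rule gives are not reported here. Alternatives were RLE size factors, scaling by library total, no filter, a filter of 5 CPM, DESeq2 1.42.0, a fit over all groups, a block for the replicate number, leaving out each library and, added after seeing the data, near copies summed. Exact intervals and the limit of 3 counts describe counting error alone.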

Additional observations from a re-analysis of the deposited data

Results flagged for a closer look

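The ST effect (log2 fold change of ST over WT hearts) differed between 6 and 2 months by the interaction test of edgeR for 17 of the 45 genes tested, and each difference below is the effect at 6 minus that at 2 months. The 2 times come from tables that list different names, and the part of that in the differences was not tested. The largest were those of Oas2 (3.23), Isg15 (2.90), Mx1 (2.82) and Bst2 (2.36), 3 antiviral effectors and a ubiquitin-like modifier. Mx2 (1.62), Oasl2 (1.61), Ifit3 (1.47), Ifi27 (1.33), Ifi47 (1.33) and Irf7 (1.32) followed. Smaller differences were those of Lgals3bp (0.94), Rsad2 (0.91), Herc6 (0.80), Rigi (0.71), Ifitm3 (0.64) and Dtx3l (0.63). The call of Rsad2 was lost with DESeq2 and without WT replicate 1 or ST replicate 1 of 2 months. It was also lost without WT replicate 3 or ST replicate 1 of 6 months. That of Dtx3l was lost without either WT library or ST replicate 2 of 2 months, and without ST replicate 3 of 6 months. Those of Rigi and Ifitm3 were lost without WT replicate 1 of 2 months. Trim25 had the one negative difference (-0.88), being higher in ST hearts at 2 months without passing the test and lower at 6 months. Oas2 had too few counts at 6 months for a test there, so its difference rests mainly on the hearts of 2 months. Mx1 and Mx2 share reads, and with their counts summed the difference was 1.82 (SE 0.22, adjusted p = 2.75e-05).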

How the results depend on the processing

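Most alternatives left the counts of members within 1.5 times of those reported. At 2 months a filter of 5 CPM left 0 higher members, since it removes Ifit1. At 6 months scaling by library total gave 5 higher and 19 lower with a median of -0.29, and DESeq2 gave 5 higher and 4 lower. For 8 against 6 months DESeq2 gave 1 lower member against ST and 0 against WT. The median difference of ST effects was 0.54 with scaling by library total and 0.36 with the filter of 5 CPM. Summing near copies turned the difference of the ST effect on Ifit1 to -0.0243, a sum in which Ifit1bl outweighs Ifit1 in WT hearts. Ifitm3, not called in these comparisons and near 0 in both, changed sign: for 8 months against ST it was 0.00495 with scaling by library total. The cause was not tested where no smaller set of genes or libraries shows it.

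Leaving out each library gave 9 to 21 lower members and medians from -0.76 to -0.74 at 2 months, 5 to 9 higher, 6 to 10 lower and medians from -0.20 to -0.0834 at 6 months, 1 to 2 lower for 8 months against ST and 0 to 2 against WT, and 8 to 16 higher ST effects with medians from 0.54 to 0.70. Over these fits Ifitm3 ran from -0.00115 to 0.140 at 2 months and from -0.104 to 0.00816 for 8 months against ST. Where this leaves 1 library in a group of 2, that library is assumed to vary like the others.

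Same-numbered ST and WT libraries deviated together only weakly (r = 0.07 at 2 months and 0.03, 0.11 and 0.004 at 6 months). With 2 libraries a group the values at 2 months can differ only in sign, so they cannot show whether hearts were paired. For ST hearts of 8 and 6 months, replicate 2 gave r = 0.18. The sample titles give no pairing beyond the number. With a replicate block, 1 member was higher and 19 lower at 2 months, 9 and 11 at 6 months, 31 and 2 for 8 months against ST, 28 and 2 against WT, and 16 and 1 for the difference, so no count moved by over 1.5 times. Not every 6-month library matched its own number best. With 2 hearts a group at 2 months and the fewest counts at 8 months, genes under about 10 counts, such as Oas3 and Zbp1, could not be tested.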
